A study of Mus musculus with 6 samples.

Results

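The genes described here are the aryl hydrocarbon receptor (AhR), the proteins it works with and the CYP1 enzymes it controls. They are 8 of the 54886 genes listed: Ahr (the receptor), Arnt (its DNA-binding partner), Ptges3 (the co-chaperone p23), Ahrr and Tiparp (its feedback repressors), and Cyp1a1, Cyp1a2 and Cyp1b1 (enzymes encoded by its targets). They were chosen by name for these roles. RNA was sequenced from mouse GC-2spd cells, a BALB/c line derived from spermatocytes, to examine the toxicity of fine particulate matter (PM2.5). The labels give normal medium for the control group, to which the study's methods add PBS. The PM2.5 group was exposed to 100 μg/mL for 48 h. Each group had 3 libraries, and the values are the deposited FPKM, fragment counts adjusted for gene length and for a scaling factor of each library. The question put to these genes was whether receptor, partner, repressors and enzymes moved together or apart under exposure.

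AhR rests in the cytoplasm in a complex with HSP90, p23 and other chaperones. When a ligand such as a polycyclic aromatic hydrocarbon binds, AhR enters the nucleus, pairs with ARNT and binds DNA at sites with the core GCGTG, which raises the transcription of CYP1 genes, whose enzymes oxidise such compounds. The same dimer also raises AHRR, which competes for ARNT and for the sites, and TIPARP, a mono-ADP-ribosyltransferase that marks AhR for loss, and both restrain the response.

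GC-2spd is an immortalised line and stands in for spermatocytes only in part, so the label was checked against markers. Of 14 germ cell markers, 1 had a mean FPKM of at least 1, and 5 (Dazl, Spo11, Piwil1, Mael and Pgk2) were at 0 in all 6 libraries. Sycp1, Ddx4, Stra8 and Dmc1, which mark germ cells and meiosis, had mean FPKM of 0.0105, 0.0550, 0.00498 and 0.0153. The most abundant was Hspa2, with a mean FPKM of 3.99, and the summed level of the list was 6.0, 5.17 and 5.08 in control replicates 1, 2 and 3 and 3.90, 4.98 and 3.5 in the PM2.5 replicates. Sycp3, a protein of the meiotic chromosome axis, was higher than these, with FPKM of 0.341, 2.56 and 0.395 in the controls and 0, 0.268 and 0.438 under PM2.5. Most markers of the list were thus at or near 0 in a line labelled as spermatocyte-derived, with Hspa2 and, in control replicate 2, Sycp3 above an FPKM of 1. Of 8 peritubular and fibroblast markers, 6 had a mean FPKM of at least 1, led by Col1a1 at 392. The sums were 927, 1458 and 948 in the controls and 934, 927 and 721 under PM2.5. None was at 0 in every library, but Dcn and Thy1 were near 0, with mean FPKM of 0.0618 and 0.00429. Within this list Col1a2 (202, 199 and 201 in the controls, 135, 130 and 115 under PM2.5) and Col3a1 (14, 17.8 and 13.6, then 9.58, 9.61 and 7.52) were lower in every PM2.5 library. Without control replicate 2, a looser order, 19.6% of the genes tested had every PM2.5 library below both controls. The share below all controls was not counted. Acta2 (41.6, 88.3 and 43.3, then 59.2, 58.1 and 59.5) was above control replicates 1 and 3 in every PM2.5 library. So was Vim (254, 698 and 262, then 291, 288 and 343). Control replicate 2 was the highest library for both Acta2 and Vim. The share of genes with every PM2.5 library above control replicates 1 and 3 was not counted. Col1a1 (412, 452 and 425, then 435, 437 and 193) overlapped between groups. Pdgfrb did too (3.37, 3.35 and 3.77, then 4.06, 4.17 and 2.77). Of 7 Sertoli markers, 1 reached that level (Gata4, 17.2), Fshr and Cldn11 were at 0, and the sums were 18.8, 18 and 19.2 in the controls and 23.7, 20.8 and 12.3 under PM2.5. Of 6 Leydig markers, 1 did (Star, 1.86), Hsd3b1 and Lhcgr were at 0, and the sums were 2.04, 2.59 and 2.01 in the controls and 1.74, 1.84 and 1.89 under PM2.5.

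The macrophage and hepatocyte lists bear on CYP1 because AhR responses are best known in liver and immune cells. Of 5 macrophage and leukocyte markers, Cd68 alone reached a mean FPKM of 1 (3.59) and Ptprc and Adgre1 were at 0, with sums of 1.32, 15.5 and 1.13 in the controls and 1.52, 1.40 and 2.5 under PM2.5. The mean of Cd68 rested on control replicate 2, with an FPKM of 15.5 against 0.750 to 1.80 in the other libraries. Of 3 hepatocyte markers, none reached it, Alb and Ttr were at 0, and the most abundant, Apoa1, had a mean of 0.0802. The hepatocyte sum was 0, 0.437 and 0.0449 in the controls and 0 in each PM2.5 library. The part of any other cell type in the results was not tested.

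The libraries were of similar depth but not alike. The reads recovered from the FPKM and the gene lengths came to 18003197, 16209346 and 17511452 in control replicates 1, 2 and 3 and to 17000293, 17114012 and 17530613 in the PM2.5 replicates. The scale of the FPKM did not follow these totals but each library's median-of-ratios size factor, which was 0.769 in control replicate 2 and 1.06 to 1.11 in the others. Across genes, control replicate 2 had a Pearson r of 0.742 and 0.745 with control replicates 1 and 3, which had 0.992 with each other. Mitochondrial genes held 14.5% of its reads, against 1.65% to 1.95% in the other 5 libraries. Its values also moved with exon length: its difference from the mean of the other controls on the log2(FPKM + 1) scale had a median of 0.54 in the shortest quartile of genes, then 0.14, -0.16 and -0.51 in the longest. PM2.5 replicate 3 differed from PM2.5 replicates 1 and 2 as well (r of 0.95 and 0.958, against 0.991 between those), and had a higher r, 0.972, with each of control replicates 1 and 3. The comparisons of the members and the named list genes are therefore given with and without control replicate 2. No label states that the libraries came from separate cultures, so p-values measure the spread between these libraries, which may be technical.

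The stretch before a gene's start shows what the members share in sequence. A promoter window was matched in RefSeq (mouse GRCm38.p6) for Arnt, Ptges3, Ahrr, Tiparp, Cyp1a1, Cyp1a2 and Cyp1b1. The 250 bases before the RefSeq start were searched on both strands for the AhR-ARNT core GCGTG, which reads CACGC on the other strand, and for the longer TNGCGTG, which contains it. The core was in 28.2% of the 32851 promoters of that length, with 3 or more copies in 2.77%, and TNGCGTG in 4.10%. Among the members it stood 3 times in Ahrr, 2 times in Ptges3, and once each in Arnt, Tiparp, Cyp1a1 and Cyp1b1. Cyp1a2 had none in this window. TNGCGTG was found in Ahrr alone among these 7. The windows of the repressors and the CYP1 genes are shown because these are the members whose levels differed most between groups, or, for Cyp1a2, were at 0. They lie on chr13:74292332-74292581 (minus strand) for Ahrr, chr3:65528197-65528446 (plus) for Tiparp, chr9:57697363-57697612 (plus) for Cyp1a1, chr9:57683656-57683905 (minus) for Cyp1a2 and chr17:79715062-79715311 (minus) for Cyp1b1, and capitals mark the core on either strand.
Ahrr: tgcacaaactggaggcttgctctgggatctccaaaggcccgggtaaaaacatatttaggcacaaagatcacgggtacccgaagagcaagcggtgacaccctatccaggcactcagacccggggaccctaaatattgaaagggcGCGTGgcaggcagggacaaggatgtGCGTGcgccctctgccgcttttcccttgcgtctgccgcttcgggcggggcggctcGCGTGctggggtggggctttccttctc
Tiparp: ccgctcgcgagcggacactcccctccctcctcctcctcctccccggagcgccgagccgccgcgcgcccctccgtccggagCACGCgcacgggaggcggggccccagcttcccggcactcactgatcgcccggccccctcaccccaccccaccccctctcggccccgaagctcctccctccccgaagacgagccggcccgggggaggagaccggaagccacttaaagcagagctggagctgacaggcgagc
Cyp1a1: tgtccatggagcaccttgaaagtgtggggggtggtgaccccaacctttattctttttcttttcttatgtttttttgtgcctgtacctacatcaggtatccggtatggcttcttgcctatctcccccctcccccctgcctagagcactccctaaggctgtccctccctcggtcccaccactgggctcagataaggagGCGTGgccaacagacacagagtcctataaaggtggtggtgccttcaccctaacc
Cyp1a2: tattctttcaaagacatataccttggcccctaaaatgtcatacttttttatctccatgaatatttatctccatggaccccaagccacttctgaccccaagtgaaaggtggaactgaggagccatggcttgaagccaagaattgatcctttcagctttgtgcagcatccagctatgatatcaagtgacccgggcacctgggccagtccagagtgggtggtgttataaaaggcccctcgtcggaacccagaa
Cyp1b1: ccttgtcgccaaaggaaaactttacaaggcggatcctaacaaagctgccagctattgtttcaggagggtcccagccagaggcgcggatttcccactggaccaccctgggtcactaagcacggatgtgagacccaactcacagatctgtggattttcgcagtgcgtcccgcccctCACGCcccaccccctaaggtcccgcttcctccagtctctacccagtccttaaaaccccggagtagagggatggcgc

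The core of Cyp1a1 began 54 bases before the start. In Cyp1b1 the core began 76 bases before the start and in Tiparp 170 bases before it, both on the other strand. The cores of Ahrr began 107, 82 and 27 bases before the start. The RefSeq start of Cyp1a1 lies 9685 bases inside the GENCODE gene, whose longest model begins further upstream. The well-known AhR-bound enhancer of Cyp1a1 lies upstream of this window. A match describes the letters only, and no binding was measured.

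**Figure D1:**
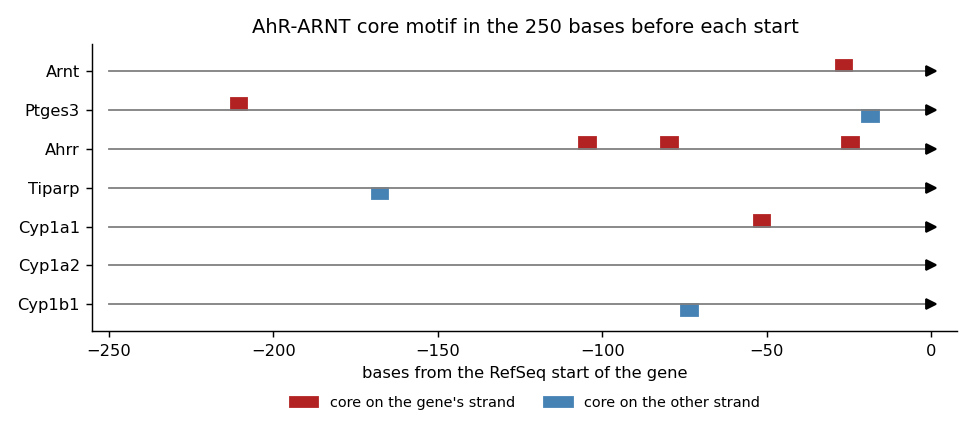
Position of the AhR-ARNT core motif in the 250 bases before the RefSeq start of 7 genes, with distance from the start in bases on the x axis; boxes above the line are on the gene's strand and boxes below it on the other strand. Ahrr has 3 cores, Ptges3 has 2, Cyp1a2 has none and the others have 1 each.

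With all 6 libraries, the groups overlapped in the genes upstream in the pathway. Ahr (chromosome 12, 35497974 to 35535038) had FPKM of 3.30, 1.21 and 3.36 in control replicates 1, 2 and 3 and of 2.86, 2.84 and 3.32 in the PM2.5 replicates. Control replicate 2 was the low library, at 36.4% of the mean of the other controls, and the groups overlapped. The mean was 2.62 ± 1.22 (SD, n = 3) in controls and 3.01 ± 0.274 under PM2.5. On the log2(FPKM + 1) scale the difference was 0.21 ± 0.30 (SE; 95% confidence interval -0.53 to 0.95; limma adjusted p = 0.876). This scale understates the change of low genes. It turned to -0.11 ± 0.10 without control replicate 2, and the interval, -0.37 to 0.14, still held 0.

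Arnt (chromosome 3, 95434388 to 95497240), the partner that AhR shares with the hypoxia-inducible factors, stood higher than Ahr in every library. Its FPKM was 23.6, 8.95 and 23.3 in control replicates 1, 2 and 3 and 20, 19.8 and 18.7 in the PM2.5 replicates. Again control replicate 2 was low, at 38.2% of the other controls, while the remaining 5 libraries lay between 18.7 and 23.6. With all libraries the log2 difference was 0.17 ± 0.39 (adjusted p = 0.906). When control replicate 2 was left out it was -0.26 ± 0.09 (interval -0.47 to -0.04), and all PM2.5 libraries lay below both controls. Its adjusted p was then 0.260, within a range of 0.260 to 0.988 over the alternatives, so Arnt was not called. Such an order, every PM2.5 library below both controls, was seen for 19.6% of the 11884 genes tested, and among the 6 members tested for Arnt only.

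Ptges3 (chromosome 10, 128058954 to 128077272), whose product p23 stabilises the HSP90 complex that holds AhR, was the most abundant member in every library. Its FPKM was 159, 317 and 147 in control replicates 1, 2 and 3 and 103, 125 and 177 in the PM2.5 replicates. Control replicate 2 was here the high library, at 207% of the other controls. The log2 difference was -0.56 ± 0.39 with all libraries (adjusted p = 0.875) and -0.21 ± 0.24 without control replicate 2 (adjusted p = 0.705, in a range of 0.677 to 0.988), and the groups overlapped both times. The value is uncertain, since 20.3% of the 31-base sequences of Ptges3 also stand in its processed pseudogene Ptges3-ps on chromosome 6. Ptges3-ps held 1291, 47 and 1470 recovered reads in the controls and 1341, 1015 and 1181 under PM2.5. Its share of the summed reads of both genes was 0.513% in control replicate 2, against 14.2% to 24.7% in the other libraries. How the counting divided reads between the pair was not tested.

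Both repressors were higher in every PM2.5 library than in every control library. Ahrr (chromosome 13, 74211118 to 74292331), a relative of AhR that lacks the part needed to activate genes, was barely detected in controls. Its FPKM was 0.0228, 0.0163 and 0.0176 in control replicates 1, 2 and 3, from 4, 2 and 3 reads. Under PM2.5 it was 0.154, 0.143 and 0.141, from 26, 24 and 24 reads. All 3 PM2.5 libraries lay within a narrow band above all controls. The ratio of reads, 74 against 9, scaled by the FPKM factor of each library, was 7.59 (95% exact interval 3.79 to 17.3). Scaled by total recovered reads it was 8.23 (4.11 to 18.7). These intervals, like the read floors given for the other low genes, cover counting error only. A two-sided exact permutation test gave p = 0.1, the smallest that 3 against 3 libraries can give. Ahrr was under the mean FPKM of 1 required for the fit across genes. On the recovered reads with no filter, an alternative chosen after seeing the data, voom gave a log2 difference of 2.75 ± 0.54 and an adjusted p of 0.415 (0.807 on FPKM with no filter), so Ahrr was not called. Control replicate 2 did not set this gene apart: without it the ratio of 7.59 became 7.21.

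Tiparp (chromosome 3, 65528410 to 65555518) was well expressed in the control cells. Its FPKM was 16.7, 7.25 and 15.4 in control replicates 1, 2 and 3 and 31.6, 33.1 and 43.7 in the PM2.5 replicates. PM2.5 replicate 3 was the highest library and control replicate 2 the lowest, and the groups did not overlap. The mean was 13.1 ± 5.14 in controls and 36.1 ± 6.62 under PM2.5, a ratio of 2.75, or 2.25 without control replicate 2. The log2 difference was 1.46 ± 0.35 (interval 0.60 to 2.31) and missed the threshold after adjustment over all genes (adjusted p = 0.616). Without control replicate 2 it was 1.11 ± 0.17 (interval 0.68 to 1.53), with an adjusted p of 0.0698 in a range of 0.0698 to 0.988, again short of the threshold of 0.05. The gene 4931440P22Rik overlaps Tiparp on the other strand and holds 4.48% of its 31-base sequences. As the library kit keeps no strand, their reads cannot be told apart there. The FPKM given to 4931440P22Rik was 0.200 to 0.608, and its part in the reads of Tiparp was not tested.

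Of the CYP1 enzymes, Cyp1a1 was near 0 in the controls and clearly detected under PM2.5, Cyp1b1 was well expressed in the controls and higher in each PM2.5 library, and Cyp1a2 had no read. Cyp1a1 (chromosome 9, 57687928 to 57703824) encodes an oxidase of aromatic hydrocarbons that AhR ligands induce in many tissues. Its FPKM was 0.0387, 0 and 0 in control replicates 1, 2 and 3, from 2, 0 and 0 reads. Under PM2.5 it was 6.15, 6.11 and 7.94, from 306, 302 and 400 reads. The groups stood far apart, and PM2.5 replicate 3 was the highest library. The ratio of reads, 1008 against 2, scaled by the FPKM factor of each library, was 465 (95% exact interval 128 to 3848). Against control replicates 2 and 3, which held no read, Cyp1a1 was at least 94.4-fold higher, taking 3 reads per library as the floor. The mean PM2.5 level was 101 times the level of 3 reads in each of the 3 control libraries. In a bulk sample, more cells with the transcript and more transcript per cell cannot be told apart.

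Cyp1a1 was called in the limma fit of all 6 libraries, with a difference of 2.92 ± 0.18 on the log2(FPKM + 1) scale (interval 2.49 to 3.36; adjusted p = 0.0301), and was higher in 3 of 3 PM2.5 libraries. It passed the filter on a mean FPKM of 1 only through the PM2.5 libraries, so a gene of this kind had to differ to be tested. With all 6 libraries kept, the call was lost with no filter (adjusted p = 0.0687, 0 genes called), with voom on the recovered reads (0.0656) and with a replicate block (0.326). It was kept with a mean FPKM of at least 0.1 (0.0343), a pseudocount of 0.1 (0.0444), scaling to total recovered reads (0.0234) and voom with no filter (0.0104). By p it ranked 1 of 11884 genes with all libraries and 5 without control replicate 2, and by log2 fold change 2 in both fits. The value without control replicate 2 was 2.91 ± 0.14 (adjusted p = 0.00757). Nor did the call hold when another library was left out. The adjusted p was then 0.227 without control replicate 1, 0.177 without control replicate 3, and 0.413, 0.509 and 0.248 without PM2.5 replicates 1, 2 and 3, while the log2 difference stayed between 2.81 and 2.98. Among the 6 members tested, Cyp1a1 was the only call with all libraries, where 0.0337% of the genes tested were called higher. The other genes called higher were Prl2c2 (4.09), Snord110 (2.61) and Lce1g (2.04), with these log2 fold changes. Snord110 and Lce1g also passed the filter only through the PM2.5 libraries. Their control FPKM were 0, 0 and 0 for Snord110 and 0.175, 0.0833 and 0.240 for Lce1g. The share called higher thus rests in part on genes of this kind.

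Cyp1a2 (chromosome 9, 57676937 to 57683703), mainly a liver enzyme, is the neighbour of Cyp1a1, in the opposite direction, with 4224 bases between the annotated ends. It had 0 reads in all 6 libraries. At this depth 3 reads would have given an FPKM of 0.0803 to 0.115, which is the level that a count of 0 still allows, and no fold is given. Of the 31-base sequences of Cyp1a1, 5.52% also stand in Cyp1a2, which was at 0 also in the PM2.5 library where Cyp1a1 had 400 reads.

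Cyp1b1 (chromosome 17, 79701537 to 79715061), an oxidase of aromatic hydrocarbons and of oestrogens, was the most abundant CYP1 gene in each library. Its FPKM was 29.0, 9.41 and 27.5 in control replicates 1, 2 and 3 and 78.8, 78.5 and 88.8 in the PM2.5 replicates. Every PM2.5 library was above every control library, and control replicate 2 was low, at 33.3% of the other controls. The mean was 22.0 ± 10.9 in controls and 82.0 ± 5.87 under PM2.5, a ratio of 3.73, or 2.90 without control replicate 2. With all libraries the log2 difference of 2.0 ± 0.44 (interval 0.92 to 3.07) was not called (adjusted p = 0.538). Without control replicate 2 Cyp1b1 rose by 1.5 ± 0.10 (interval 1.24 to 1.76; adjusted p = 0.0103, in a range of 0.0103 to 0.988 over the alternatives), so this call rests on leaving out that library. With the 5 remaining libraries Cyp1a1 and Cyp1b1 were the 2 members called, where 0.160% of the genes tested were called higher. Under PM2.5 the FPKM of Cyp1b1 was 12.8, 12.8 and 11.2 times that of Cyp1a1 in the 3 libraries, so the gene with the larger fold had the lower level per length. The recovered reads of Cyp1b1 missed whole numbers by up to 0.488, so only its FPKM is given.

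**Figure D2:**
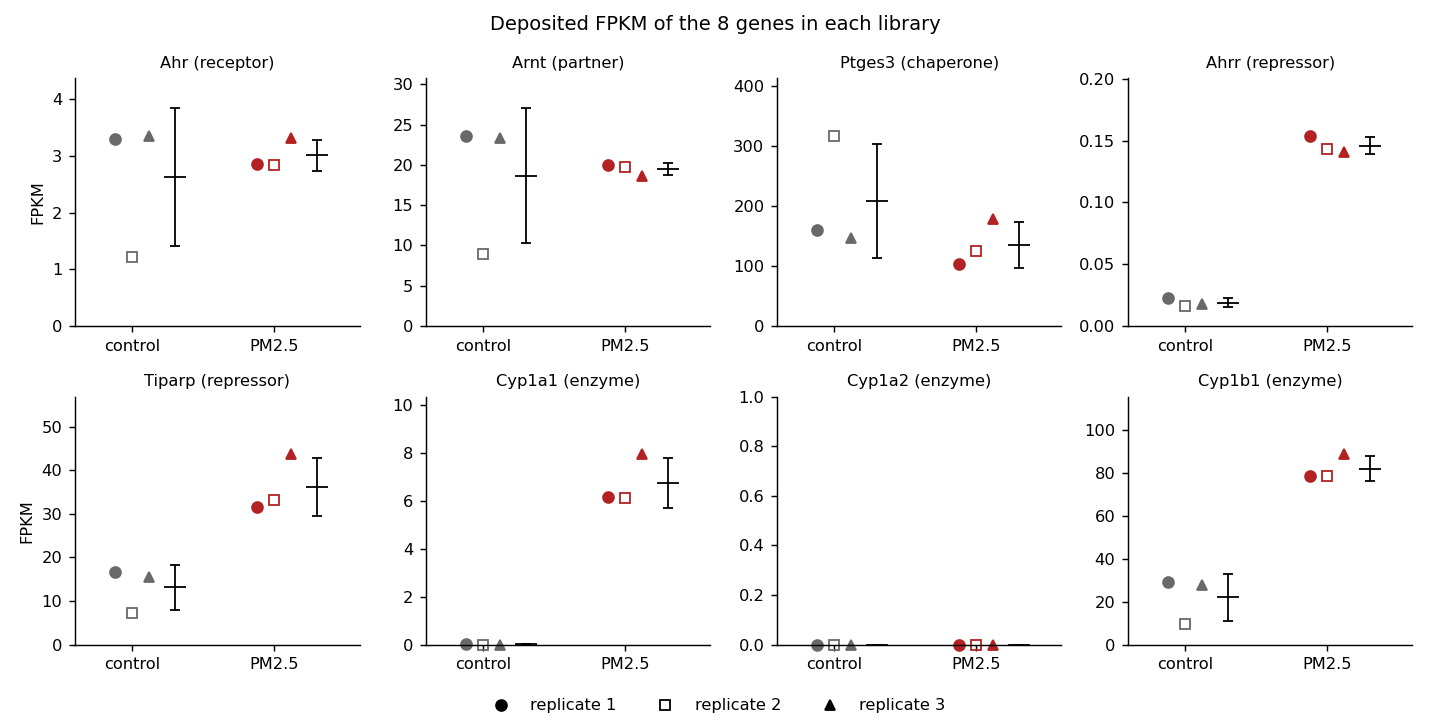
FPKM of the 8 genes in each library on the y axis, 3 control and 3 PM2.5 libraries, with the mean and SD of each group beside the points; open squares are replicate 2, and each panel has its own scale. Ahrr, Tiparp, Cyp1a1 and Cyp1b1 lie higher in every PM2.5 library, Ahr, Arnt and Ptges3 overlap, and Cyp1a2 is at 0.

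Set side by side, 3 of the 6 members tested (Tiparp, Cyp1a1 and Cyp1b1) were higher in every PM2.5 library than in every control library, which held for 8.35% of the genes tested, and Ahrr showed the same order below the filter. This share is a description only, since Cyp1a1 entered the fit through its PM2.5 libraries and the members were not chosen blind to these data. At an unadjusted p under 0.05 the limma fit of all libraries held these 3 members and 3.80% of all genes tested. The fit without control replicate 2 held Arnt as well, 4 members in all, and 15.9% of the genes tested. The receptor, the partner and the chaperone had 95% intervals that held 0 with all libraries. The direction of Ahr and Arnt turned when control replicate 2 was left out, and that of the other members tested did not. Ptges3 stayed below 0, and Tiparp, Cyp1a1 and Cyp1b1 stayed above it. Scaling to the total of recovered reads moved the median of all genes by 0.12 (log2), with Ahr then at 0.28 and Arnt at 0.30.

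**Figure D3:**
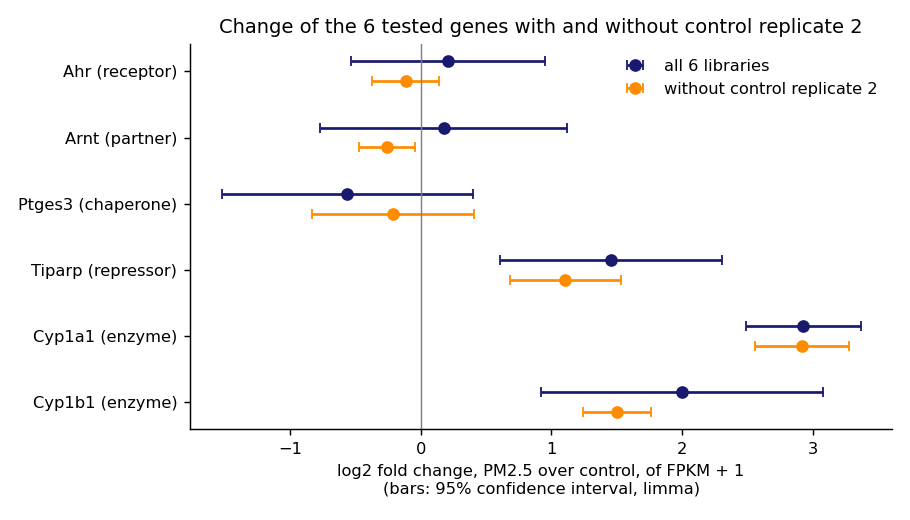
The log2 fold change of FPKM + 1, PM2.5 over control, on the x axis for the 6 members tested, with 95% confidence intervals from limma; dark points use all 6 libraries and orange points leave out control replicate 2. Cyp1a1 lies at 2.92 and 2.91, Cyp1b1 at 2.0 and 1.5, Tiparp at 1.46 and 1.11, and the intervals of Ahr and Ptges3 hold 0 both times.

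Control replicate 2 lay with the other controls for several members when each was set against Ahr within its own library, a ratio chosen after the values were seen and given as a description. Cyp1b1 had 8.78, 7.76 and 8.21 times the FPKM of Ahr in control replicates 1, 2 and 3 and 27.5, 27.7 and 26.7 times in the PM2.5 replicates. Control replicate 2, which was far below the other controls in FPKM, lay close to them in this ratio. Tiparp gave 5.07, 5.98 and 4.60 in the controls and 11, 11.7 and 13.2 under PM2.5. Arnt gave 7.15, 7.38 and 6.94, and then 6.98, 6.98 and 5.62, so the receptor and its partner kept nearly the same proportion in all libraries but PM2.5 replicate 3. The ratio of Cyp1b1 was 3.31 times as high under PM2.5 and that of Tiparp 2.29 times. Ptges3 did not follow, with 48.2, 261 and 43.8 in the controls and 36.2, 44.2 and 53.4 under PM2.5. Nor did Ahrr, with few reads, at 0.00691, 0.0135 and 0.00525 in the controls and 0.0539, 0.0505 and 0.0423 under PM2.5. The exon lengths were 6163 bases for Ahr, 8007 for Arnt, 4358 for Tiparp, 9441 for Ahrr and 2217 for Ptges3. The part of exon length in these ratios was not tested. Of the 5 other members tested, Tiparp, Cyp1a1 and Cyp1b1 had a ratio to Ahr above every control in every PM2.5 library, as did 4.45% of the genes tested, and Cyp1a1 was tested only because its PM2.5 libraries passed the filter.

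**Figure D4:**
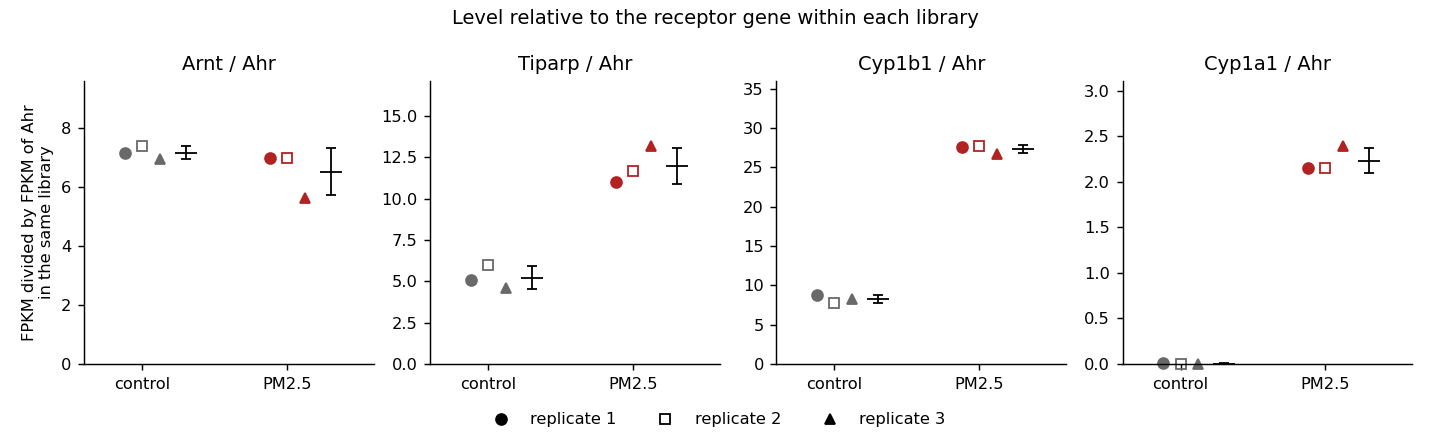
FPKM of Arnt, Tiparp, Cyp1b1 and Cyp1a1 divided by the FPKM of Ahr in the same library on the y axis, 3 libraries per group, with mean and SD; open squares are replicate 2. Control replicate 2 lies beside the other controls for Cyp1b1 (7.76 against 8.78 and 8.21), and the PM2.5 libraries lie between 26.7 and 27.7.

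Genes around the receptor were read in lists, of which limma called 0 genes in the fit of all 6 libraries, and voom on the recovered reads called 0 of 11740 genes in all. Of other AhR targets, 9 of 19 were tested, and their log2 fold changes had a median of 0.44, against 0.02 over all genes tested. At an unadjusted p under 0.05, 3 were higher (Xdh, Nqo1 and Ptgs2) and 1 lower (Ccng2), beside 228 higher and 223 lower of the 11884 genes tested. Nqo1 and Ptgs2 are named after their values were seen. Xdh, xanthine dehydrogenase, had FPKM of 4.45, 2.39 and 4.28 in the controls and 18.1, 17.3 and 14.9 under PM2.5, so the groups were well apart. Its log2 difference was 1.95 ± 0.25 with all libraries (adjusted p = 0.121) and 1.73 ± 0.11 without control replicate 2 (adjusted p = 0.0103, called higher). Nqo1, a quinone reductase, had 19.6, 24.7 and 18.9 in the controls and 37.5, 42.2 and 53.3 under PM2.5, and Ptgs2, the inducible cyclooxygenase, had 3.22, 3.8 and 2.85 and then 7.27, 7.61 and 10.5. The log2 difference was 1.03 for Nqo1 and 1.13 for Ptgs2 with all libraries, and 1.15 and 1.22 without control replicate 2. Both had an adjusted p of 0.0652 without control replicate 2 and were not called. Ccng2, cyclin G2, had 10.8, 6.62 and 9.91 in the controls and 4.01, 4.21 and 4.81 under PM2.5, with a log2 difference of -0.90 ± 0.23 (adjusted p = 0.688), and without control replicate 2 it fell by 1.09 (adjusted p = 0.0261).

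Nfe2l2, which encodes NRF2, had a log2 difference of 1.17 ± 0.65 that was 0.40 ± 0.11 without control replicate 2, where its FPKM was 3.62 against 22.1 in each of the other controls. Hes1, a transcriptional repressor downstream of Notch, had -0.64 ± 0.39, and -0.21 ± 0.10 without that library. Without it the list had 1 gene called higher and 1 lower, beside 19 higher and 65 lower of the 11884 genes tested, and 4 higher and 2 lower at an unadjusted p under 0.05, beside 978 and 907. The median was then 0.40 against -0.01 over all genes. Aldh3a1, Ugt1a6a, Ugt1a6b, Gsta1, Gsta2, Cyp2s1, Ereg, Areg, Serpinb2 and Ido1 were under the filter.

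The chaperones and the genes for degradation of AhR, all 7 tested, had log2 fold changes with a median of 0.26, and 0 were at an unadjusted p under 0.05. The 2 highest were Ddb1 (0.52 ± 0.53), part of a ubiquitin ligase, and Hsp90ab1 (0.46 ± 0.38), and Cul4b (-0.07 ± 0.28), a scaffold of such ligases, was among the 2 lowest. Without control replicate 2 Ddb1 turned to -0.09, Hsp90ab1 was at 0.15 and Cul4b at -0.29, the median was -0.01 and 1 gene, Stub1 (0.16 with all libraries, -0.26 without), was lower at an unadjusted p under 0.05, a level that 907 of the 11884 genes tested reached as lower and 978 as higher in that fit. Of 13 coregulators, all were tested, the median was 0.12 and 0 passed that level. Ncoa1 (0.28 ± 0.24) and Ep300 (0.27 ± 0.35) were the highest, and Rb1 (-0.38 ± 0.21) and Nrip1 (-0.15 ± 0.17) the lowest. In the fit of 5 libraries Ep300 turned to -0.10, Ncoa1 was at 0.06, Rb1 at -0.49 and Nrip1 at -0.23, the median was -0.07, and Rb1 and Sp1 (-0.09 with all libraries, -0.30 without) were lower at that level. Of 16 other genes of the bHLH-PAS family, to which AhR and ARNT belong, 8 were tested, with a median of 0.02. With all libraries Hif1a (0.36 ± 0.64) and Clock (0.34 ± 0.39) were the highest, and Per1 (-0.65 ± 0.46) and Per2 (-0.45 ± 0.17) the lowest. Hif1a turned to -0.38 and Clock to -0.09 without control replicate 2, where the FPKM of Hif1a was 16 against 80 and 77.3 in the other controls, and Per1 and Per2 were then at -0.22 and -0.37. Per2 and Per3 (-0.44 with all libraries, -0.38 without) were lower at an unadjusted p under 0.05 in both fits, a level reached by 3.80% and 15.9% of all genes tested, and the median without control replicate 2 was -0.16. Epas1, Hif3a, Npas1, Npas2, Npas3, Npas4, Sim1 and Sim2 were under the filter.

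The enzymes that work beside CYP1 showed no call. All 5 were tested, the median was -0.09 and 0 had an unadjusted p under 0.05. Por, the reductase that passes electrons to P450 enzymes, had FPKM of 25.3, 15.2 and 24.9 in the controls and 41.1, 39.5 and 26.4 under PM2.5, which did not overlap, and a log2 difference of 0.69 ± 0.30 (adjusted p = 0.875). Ephx1, an epoxide hydrolase, had 0.18 ± 0.28, and the lowest were Cyb5r3 (-0.44 ± 0.42) and Cyb5a (-0.15 ± 0.41), which carry electrons through cytochrome b5. With control replicate 2 left out, Por was at 0.46, Ephx1 at 0.44, Cyb5r3 at 0.03 and Cyb5a at 0.28, all 5 genes were above 0, the median was 0.44, and 2 genes, Ephx1 among them, passed an unadjusted p under 0.05, as did 15.9% of all genes tested. Of 12 hypoxia genes served by ARNT with HIF, 11 were tested. Their median with all libraries was -0.01, with Pgk1 (0.85 ± 0.88) and Egln3 (0.53 ± 0.31) highest and Ankrd37 (-0.93 ± 0.31) and Slc2a1 (-0.63 ± 0.27) lowest. Pgk1 had an FPKM of 50 in control replicate 2, against 454 and 449 in the other controls and 391, 396 and 390 under PM2.5, and turned to -0.20 without that library, with every PM2.5 library below both controls. Egln3 was then at 0.23, Ankrd37 at -0.66 and Slc2a1 at -0.38. At an unadjusted p under 0.05, 1 of them (Ankrd37) was lower and 0 higher. Without control replicate 2 the median was -0.37, with 6 lower and 1 higher at that level, beside 907 lower and 978 higher of the 11884 genes tested, and none was called.

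**Figure D5:**
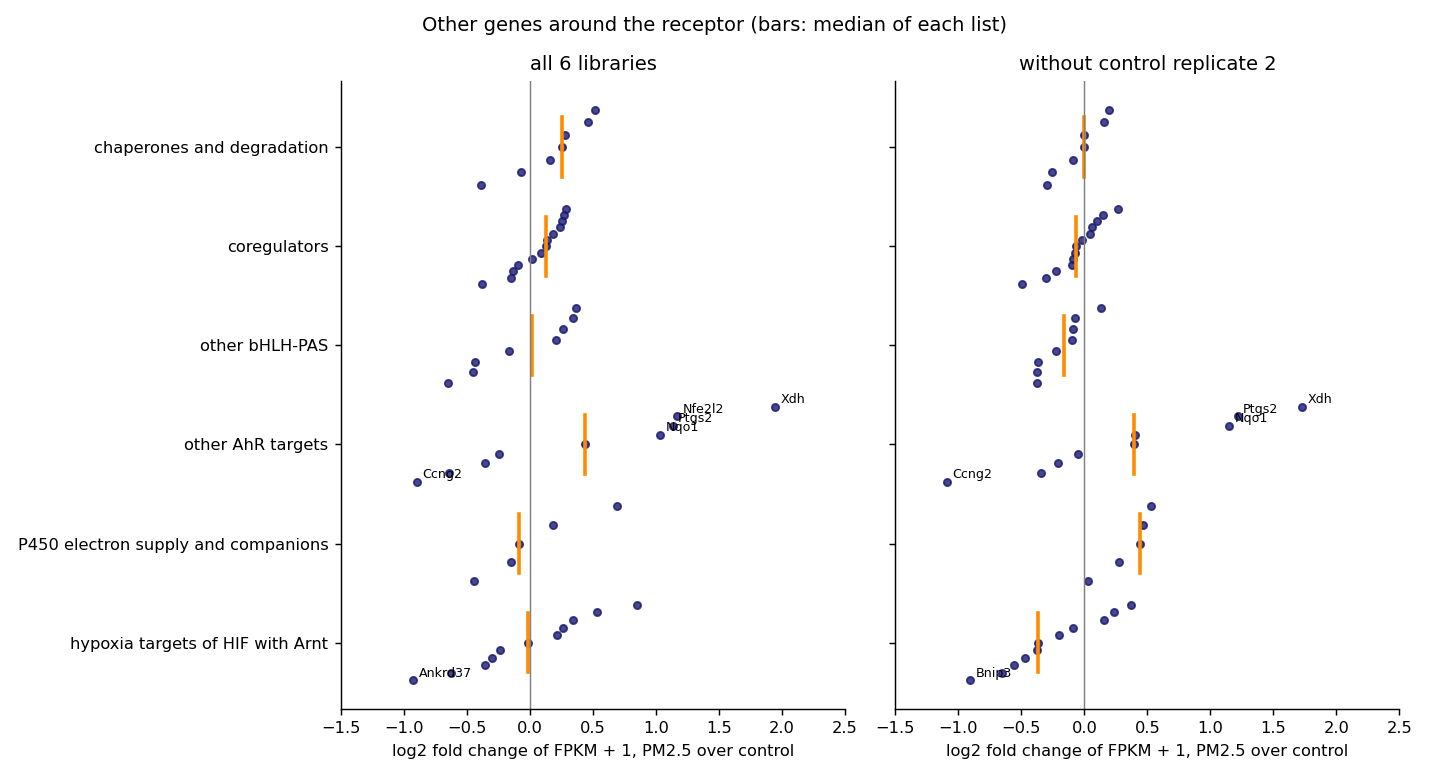
The log2 fold change of FPKM + 1, PM2.5 over control, on the x axis for each tested gene of 6 lists, with all 6 libraries on the left and without control replicate 2 on the right; orange bars are the medians. Xdh lies highest in both panels (1.95 and 1.73), and the median of the hypoxia list lies at -0.01 and -0.37.

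The genes whose pattern over the 6 libraries was most like that of a CYP1 gene were ranked by Pearson r of log2(FPKM + 1), given as a description, since the 6 libraries form 2 groups. For Cyp1a1 they were Snord110 (r = 0.998), Gdnf (0.998), Slc14a1 (0.995), Ptx3 (0.995) and Lce1g (0.995), and 54 genes were above 0.95. Since they were chosen by r with Cyp1a1, it was nearly given that each was higher in every PM2.5 library. It was likewise nearly given that control replicate 2 lay beside the other controls. Gdnf, a growth factor for neurons and spermatogonia, had 1.95, 1.80 and 1.90 in the controls and 5.85, 5.52 and 5.84 under PM2.5. Snord110 and Lce1g, like Cyp1a1, passed the filter only through the PM2.5 libraries. For Cyp1b1 they were Abracl (0.998), Noct (0.998), Lrp2 (0.998), Svil (0.997) and Aif1l (0.997), and 195 genes were above 0.95. Here, again by the choice on r, control replicate 2 lay below the other controls. Lrp2, an endocytic receptor, had 1.25, 0.392 and 1.20 in the controls and 2.54, 2.59 and 3.05 under PM2.5. Tiparp had an r of 0.992 with Cyp1b1 and of 0.900 with Cyp1a1, and Cyp1a1 and Cyp1b1 had 0.898 with each other. The r of Ahr was 0.696 with Cyp1b1 and 0.320 with Cyp1a1.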

How the data were processed

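The authors deposited FPKM for 54886 genes in each of 6 libraries made with the NEBNext Ultra kit. The submitters' processing notes name HISAT2 2.0.5, featureCounts 1.5.0-p3 and the build mm9, whereas the lengths behind the values fit GENCODE M21 on GRCm38, used here for names, lengths and positions (54495 genes matched). Each FPKM times gene length was divided by the worth of 1 read, and 98.1% to 98.4% of values under 50 reads fell within 0.05 of a whole number. The members and lists were chosen with earlier results of these data known.

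limma 3.58.1 (trend, robust, R 4.3.3) was fitted to log2(FPKM + 1) with group as the only term for the 11884 genes whose mean FPKM reached 1. It took the place of the study's count test because FPKM were deposited, and the recovered reads were used with voom as an alternative. Genes were called at a Benjamini-Hochberg adjusted p under 0.05 with a log2 fold change beyond 1 in size, of which there were 11 with all libraries (4 higher, 7 lower) and 84 without control replicate 2 (19 higher, 65 lower). The fit was also run on simulated data with a log2 fold change of 2, and no value from that run is reported here. Named genes are all members, in each list the called genes and the 2 highest and 2 lowest log2 fold changes, the 5 genes most like Cyp1a1 and Cyp1b1, and the genes called higher. A gene outside this rule is named with its values known, and some genes under it are not reported here. Other filters, pseudocounts, scalings, voom, a replicate block and leaving out each library were tried.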

Additional observations from a re-analysis of the deposited data

How the results depend on the processing

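With all libraries, 11 genes and 1 member (Cyp1a1) were called. The count of genes was 0 with no filter on low values, 4 with a mean FPKM of at least 0.1, 6 with values scaled to total recovered reads, 0 with voom on the recovered reads and 2 with voom and no filter, an alternative chosen after seeing the data. Their counts at an unadjusted p under 0.05 were 875 of 25594 genes tested, 680 of 17616, 439 of 11884, 423 of 11740 and 1046 of 25249, against 451 of 11884. The count of members was 0 with no filter and with voom on the filtered genes, where the adjusted p of Cyp1a1 was 0.0687 and 0.0656. With the replicate block, 0 genes and 0 members were called by limma, 335 genes had an unadjusted p under 0.05, and Cyp1a1 had an adjusted p of 0.326 at the same difference of 2.92. Libraries with the same number had correlated deviations of -0.285, 0.181 and 0.253, and the mean was 0.0495 for same and -0.0524 for different numbers, so the numbers were not taken to pair the libraries. Leaving out each library in turn gave 0 to 84 genes and 0 to 2 members, with 84 and 2 without control replicate 2 and 0 otherwise. The log2 difference of Ahr ran from -0.11 to 0.37 over the left-out libraries and that of Arnt from -0.26 to 0.40, both reversed only without control replicate 2. The count of 84 became 40 with no filter. With 1 read as the floor, the mean PM2.5 level of Cyp1a1 was 302 times the floor in place of 101. Leaving out libraries gave 91.6 to 114 times for it, and 7.21 to 8.55 for the read ratio of Ahrr. The log2 differences of Tiparp, Cyp1a1 and Cyp1b1 were above 0 in all 14 settings, and that of Ptges3 was below 0 in all 14. They ran over 1.11 to 1.66 for Tiparp, 1.5 to 2.27 for Cyp1b1 and -0.77 to -0.21 for Ptges3. For Cyp1a1 the difference was 2.81 to 2.98 on the log2(FPKM + 1) scale. It was 5.93 with a pseudocount of 0.1, 8.46 with voom and 8.51 with voom and no filter, which are other scales. Apart from the number of genes or libraries and the scale that a setting changes, the cause of these shifts was not tested. Depth limits Ahrr, Cyp1a1 and Cyp1a2 most, with 2 to 4, 0 to 2 and 0 reads in the control libraries.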
